A study of Mus musculus with 6 samples.

Results

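NRF2, its regulators and its dimer partners were examined in mouse macrophages as 9 genes: Nfe2l2 (encoding NRF2), Nfe2l1, Keap1, Bach1, Maff, Mafg, Mafk, Cul3 and Osgin1. They were chosen by gene name among the non-control spots of the arrays, which carry 34787 gene names on 55681 probes. These genes and the gene lists below were chosen with earlier results of these data known. Their called shares are therefore descriptions and not tests. All 9 were found, on 12 probes, of which 4 are for Mafg. The cells were wild type macrophages derived from bone marrow of female C57BL/6 mice (strain label C57/B6) aged 6 to 8 weeks per the labels, where the methods of the study name the J substrain and another age range, after 7 days in growth medium conditioned by L929 cells. They were left untreated, exposed to lipopolysaccharide (LPS, a ligand of TLR4) at 100 ng/ml for 4 h, or given a small molecule inhibitor of the deubiquitinase USP7 at 10 µM for 30 min before the same LPS exposure (LPS+USP7i). The treatment label states the LPS dose per microlitre and the series design per millilitre. Each group had 2 arrays, from independent experiments per the design text. No group received the inhibitor without LPS, and the sources used here do not say whether cells without inhibitor received its solvent.

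NRF2 is a transcription factor that activates genes of antioxidant defence, glutathione synthesis and detoxification. In resting cells the adaptor KEAP1 holds NRF2 to a CUL3 ubiquitin ligase that marks it for degradation, and electrophiles or oxidants modify KEAP1 and let NRF2 build up. NRF2 binds DNA at antioxidant response elements as a dimer with a small MAF protein (MAFF, MAFG or MAFK), and BACH1 competes for such sites with the same partners as a repressor that heme removes. Because NRF2 is controlled largely through its protein, its mRNA and its activity are separate quantities, and the arrays measured mRNA alone.

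The treatments and the cell type were checked first. Tnf was raised by 7.61 on the log2 scale in LPS over untreated macrophages (SE 0.12, adjusted p = 0.00152), and Il6, Nos2 and Cxcl10 also rose. Usp7, which encodes the target of the inhibitor, had a log2 difference of -0.14 between LPS+USP7i and LPS (adjusted p = 0.627). With the inhibitor Nos2 fell by 4.79 from its level with LPS (adjusted p = 0.02) and Tnf by 0.78 (adjusted p = 0.0382), while Il6 had a log2 difference of -2.55 (adjusted p = 0.0831) and Cxcl10 of -0.26 (adjusted p = 0.746). The call of Tnf was lost with any 1 array left out (adjusted p 0.0595 to 0.144) and that of Nos2 without any 1 untreated or LPS array (adjusted p up to 0.0813). All 7 macrophage markers were well above background on all 6 arrays, and the 3 fibroblast markers on none. The 5 neutrophil markers were also above background on all 6 arrays, the probe of Elane having the highest mean signal, and none of them passed the test in any comparison. Replicates of some lay far apart. S100a9 was at 7.68 and 10.72, then 9.54 and 12.38, then 8.35 and 11.57 in untreated, LPS and LPS+USP7i arrays (SE of a difference 1.9). Mpo was at 8.39 and 6.45, then 8.65 and 6.67, then 6.49 and 4.84 (SE 1.1). For these genes, not passing does not show that a change was absent. Among the macrophage markers Fcgr1 was 3.04-fold lower in LPS+USP7i than in LPS (adjusted p = 0.0317) and lower than in untreated cells by a log2 difference of -1.26 (adjusted p = 0.0374), and Itgam was lower in LPS than in untreated cells, with a log2 difference of -0.66 (adjusted p = 0.0233). All 7 had a negative log2 difference in LPS+USP7i minus untreated, with a median of -0.49. Both calls of Fcgr1 were lost with any 1 array left out (adjusted p 0.0581 to 0.123 and 0.0537 to 0.13), and that of Itgam without any 1 untreated or LPS array (adjusted p up to 0.117). The part of these markers in the results below was not tested. In RNA from whole cultures, fewer cells of a type and less RNA per cell cannot be told apart.

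All 12 probes of the 9 genes were well above background on all 6 arrays, so none of the values of these genes is a bound. Levels are log2 signals after quantile normalization, replicate 1 before replicate 2. The untreated arrays gave 14.18 and 14.39 for Nfe2l2, the LPS arrays 13.97 and 14.45, and the LPS+USP7i arrays 14.77 and 15.08. Its untreated and LPS arrays overlapped, and both LPS+USP7i arrays lay above the other 4. Nfe2l1, which encodes NRF1, the related factor that drives proteasome genes, was at 7.85 and 7.75, then 8.56 and 8.20, then 8.75 and 8.63, with no overlap between groups and LPS+USP7i the highest. Keap1 was at 12.67 and 12.65, then 13.25 and 13.09, then 12.76 and 12.87, highest in the LPS arrays. Cul3 was at 9.33 and 9.40, then 10.00 and 10.09, then 10.37 and 10.25, so its lowest group was the untreated one. Bach1 was at 12.25 and 11.97, then 11.94 and 11.79, then 12.75 and 12.73, its lowest group the LPS one and its highest LPS+USP7i, with no overlap between groups.

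The small MAF genes took different courses. For Maff the untreated arrays gave 5.79 and 6.35, the LPS arrays 10.38 and 10.29, and the LPS+USP7i arrays 11.66 and 11.30. For Mafk they gave 9.45 and 9.52, then 12.09 and 11.70, then 12.15 and 12.08. Both were low in the untreated arrays and high in all 4 LPS-exposed ones, and the LPS and LPS+USP7i arrays of Mafk overlapped. Mafg, on its probe of highest signal, was at 13.24 and 13.17, then 12.26 and 12.19, then 14.68 and 14.61. Osgin1, which encodes oxidative stress induced growth inhibitor 1 and is a known NRF2 target, was at 10.04 and 9.57, then 7.53 and 6.73, then 11.65 and 10.86. Mafg and Osgin1 thus shared with Bach1 an order in which the LPS arrays were lowest and the LPS+USP7i arrays highest, without overlap. The plot of log2 signals by array shows these courses on a common scale.

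**Figure D1:**
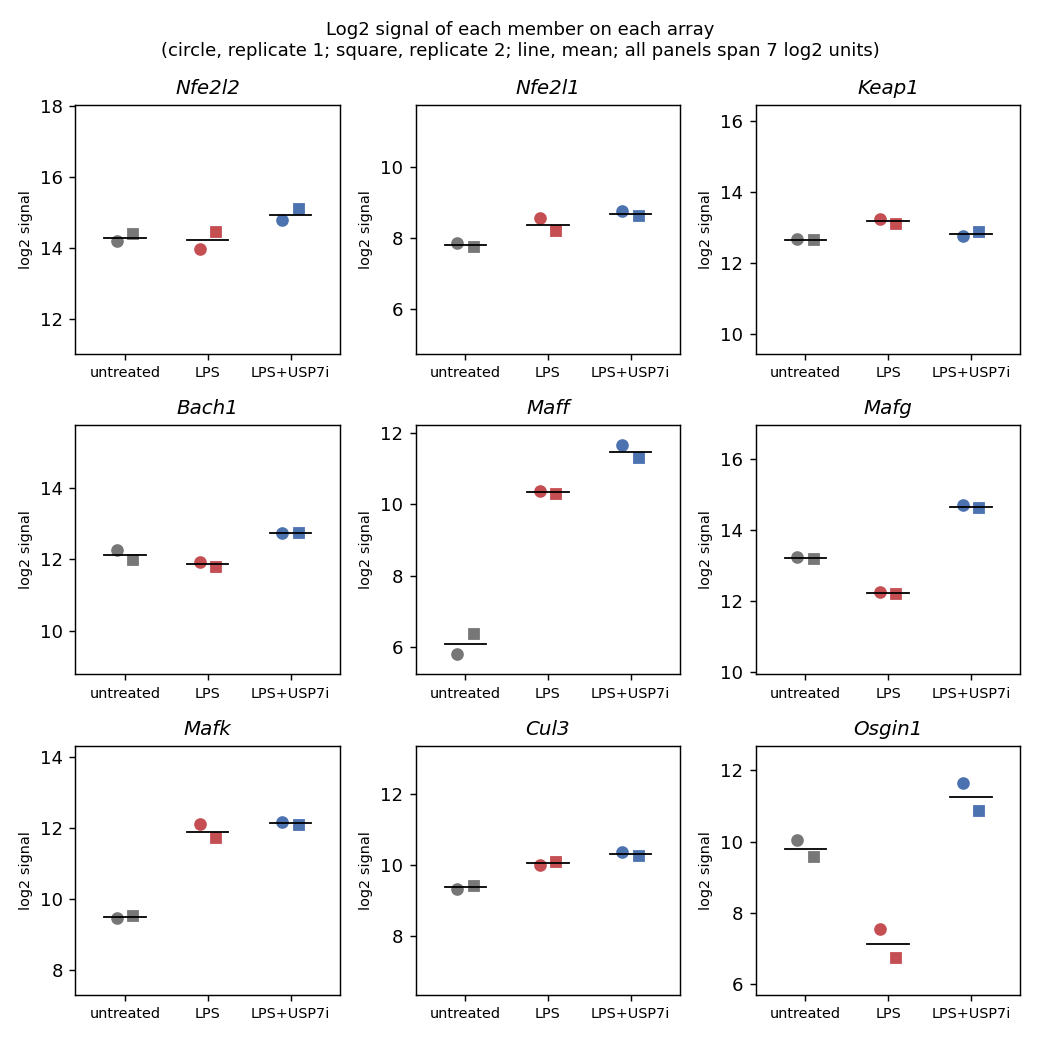
Log2 signal (y axis) of each gene's probe of highest mean signal on each of the 6 arrays, by group (x axis). Circles are replicate 1, squares replicate 2 and lines group means; each panel has its own level and all panels have the same height in log2 units. Maff and Mafk are low in the untreated arrays, and Mafg and Osgin1 are lowest in the LPS arrays and highest in the LPS+USP7i arrays.

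LPS against untreated cells asks what TLR4 stimulation does to these genes. Maff was 19.2-fold higher in LPS-treated than in untreated macrophages, a log2 difference of 4.26 (SE 0.24, adjusted p = 0.00395), and Mafk was 5.31-fold higher, a log2 difference of 2.41 (SE 0.15, adjusted p = 0.00429). Mafg fell by 0.98 on the log2 scale (SE 0.069, adjusted p = 0.00499), and Osgin1 fell by 2.67 (SE 0.43, adjusted p = 0.0258). The genes of the ubiquitin ligase rose by less, Cul3 by 0.68 (SE 0.08, adjusted p = 0.0126) and Keap1 by 0.51 (SE 0.086, adjusted p = 0.0295). In all, 4 of the 9 genes were called higher, where 7.98% of all genes tested were, and 2 were called lower, where 12.8% of all genes were (limma, adjusted p under 0.05). Genes well above background on all 6 arrays, as the 9 were, were called higher in 14.1% and lower in 23.9%. The median log2 difference of the 9 genes was 0.51, against 0 over all genes. Nfe2l2 had a log2 difference of -0.07 (SE 0.22, adjusted p = 0.949), Bach1 of -0.24 (adjusted p = 0.334) and Nfe2l1 of 0.58 (adjusted p = 0.0766), none of them past the threshold.

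With 75th percentile scaling the median of all genes in LPS minus untreated moved by 0.40. Relative to that median Nfe2l2 was then at 0.10, where it had been at -0.07, Bach1 at -0.30, Cul3 at 0.32 and Keap1 at 0.56. Maff, Mafg and Mafk stayed past the threshold with any 1 array left out. Keap1 did not with any of the 6 left out (adjusted p 0.0515 to 0.132, log2 difference 0.42 to 0.58), Osgin1 did not without any 1 of the untreated or LPS arrays (adjusted p up to 0.12, log2 difference -3.07 to -2.27), and Cul3 did not without untreated replicate 1 or 2 or LPS replicate 2 (adjusted p up to 0.0701, log2 difference 0.63 to 0.73). Of 16 alternatives to the fit or its input, Keap1 was called in 7, Osgin1 in 12, Cul3 in 13 and each small MAF gene in 16, and Nfe2l1 gained a call in 4, among them the fit without LPS replicate 2 (adjusted p from 0.0197). A block for replicate number was among the alternatives that ended the call of Keap1. A further alternative, an absolute log2 difference of at least 1 besides the adjusted p, left out Mafg, Cul3 and Keap1 in this comparison.

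LPS+USP7i against LPS asks what the inhibitor changed in stimulated cells. Osgin1 was 17.4-fold higher with the inhibitor, a log2 difference of 4.12 (SE 0.43, adjusted p = 0.0215). Mafg was 5.36-fold higher, with a log2 difference of 2.42 (SE 0.069, adjusted p = 0.00987). Bach1, the repressor, rose by 0.88 (SE 0.13, adjusted p = 0.0352). These 3 of the 9 genes were called higher, where 5.52% of all genes tested were, and 0 were called lower, where 4.27% of all genes were. At an unadjusted p under 0.05 limma gave 6 of the 9 higher and 1 lower, against 4989 and 4060 of the 34787 genes tested. Among genes above background on all 6 arrays the called shares were 9.74% and 7.42%. The median log2 difference of the 9 genes was 0.71, against 0 over all genes.

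The mRNA of NRF2 itself did not pass the threshold. Nfe2l2 was 1.64-fold higher in the mean of the 2 arrays with the inhibitor (log2 difference 0.71, SE 0.22), with an unadjusted p of 0.0318 and an adjusted p of 0.162. Keap1 had a log2 difference of -0.35 (SE 0.086, adjusted p = 0.101) and Cul3 of 0.27 (SE 0.08, adjusted p = 0.148). Of the LPS-induced small MAF genes, Maff had a log2 difference of 1.15 (SE 0.24, adjusted p = 0.0757) and Mafk of 0.22 (SE 0.15, adjusted p = 0.54). Nfe2l1 had one of 0.31 (adjusted p = 0.357). Whether the change of Mafg differed from those of Maff and Mafk was not tested. Without either untreated array, 0 genes of the whole array passed in this comparison (smallest limma adjusted p 0.0551 and 0.0554), so the calls of Osgin1, Mafg (log2 difference 2.36 to 2.45 with 1 array left out) and Bach1 were lost with them. The call of Bach1 was also lost without any 1 of the other 4 arrays (adjusted p 0.064 to 0.123, log2 difference 0.79 to 0.93) and that of Osgin1 without either LPS array or LPS+USP7i replicate 1 (adjusted p up to 0.0713, log2 difference 3.70 to 4.50). Of 16 alternatives Mafg was called in 13, Osgin1 in 10 and Bach1 in 8 (adjusted p 0.00529 to 0.123 for Bach1), and 75th percentile scaling was among those that ended the call of Bach1. Maff gained a call in 2, normexp background correction and dim probes left out (adjusted p from 0.012). Bach1 stayed under a log2 difference of 1.

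**Figure D2:**
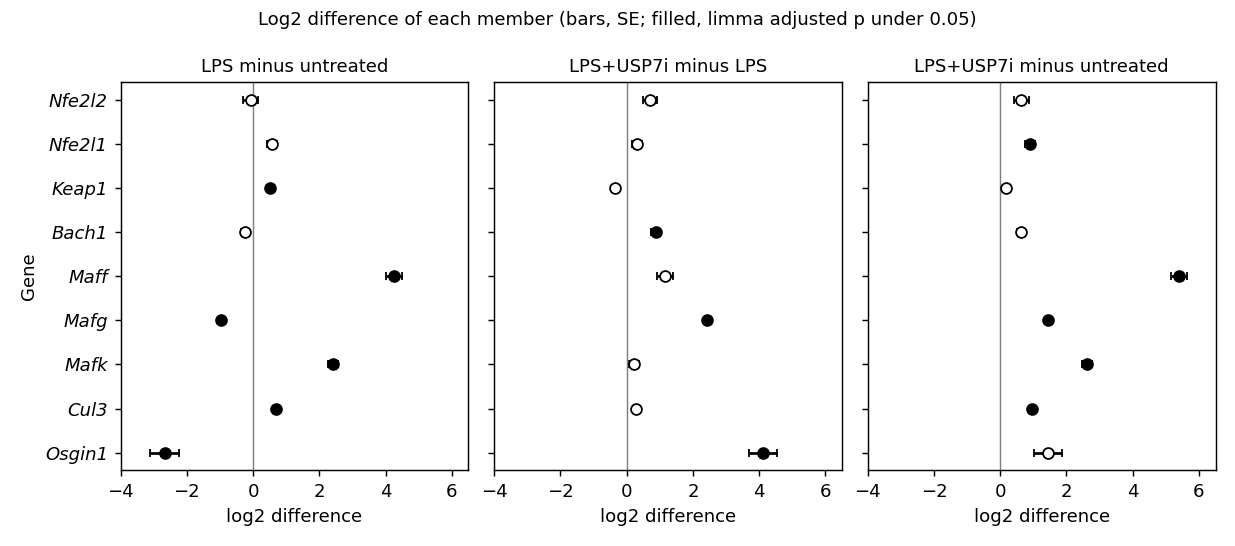
Log2 difference (x axis) of each gene (y axis) in the 3 comparisons, with bars for the SE and filled points where the limma adjusted p was under 0.05. Maff and Mafk lie far to the right in LPS minus untreated, where Mafg and Osgin1 lie to the left, and Osgin1 and Mafg have the largest differences of the 9 in LPS+USP7i minus LPS.

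LPS+USP7i against untreated cells gives the net change, and it shares arrays with both other comparisons. Maff was 42.6-fold higher (log2 difference 5.41, SE 0.24, adjusted p = 0.00513), Mafk was higher by 2.63 (SE 0.15, adjusted p = 0.00622) and Mafg 2.72-fold higher (log2 difference 1.44, SE 0.069, adjusted p = 0.00536), so all 3 small MAF genes were above the untreated level. Cul3 rose by 0.95 (SE 0.08, adjusted p = 0.00983) and Nfe2l1 by 0.89 (SE 0.15, adjusted p = 0.0347). That made 5 of the 9 called higher, where 6.16% of all genes were, and 0 called lower, where 8.71% were. Of genes above background on all 6 arrays, as the 9 were, 10.9% were called higher and 16.3% lower. At an unadjusted p under 0.05 limma gave 8 of the 9 higher and 0 lower, against 4236 and 5767 of the 34787 genes tested. The median log2 difference of the 9 was 0.95, against 0 over all genes. Osgin1 had a log2 difference of 1.45 (SE 0.43, adjusted p = 0.131), Nfe2l2 of 0.64 (adjusted p = 0.177), Bach1 of 0.63 (adjusted p = 0.0525) and Keap1 of 0.16 (adjusted p = 0.406). The call of Nfe2l1 was lost without either untreated or either LPS+USP7i array (adjusted p up to 0.154, log2 difference 0.84 to 0.94) and that of Cul3 without either untreated array (adjusted p up to 0.0587, log2 difference from 0.89). Maff, Mafg and Mafk passed under all 16 alternatives, while Nfe2l2 gained a call under 2, Osgin1 under 5 and Bach1 under 6. A block for replicate number was among these alternatives for Nfe2l2, Osgin1 and Bach1 alike. Cul3 and Nfe2l1 stayed under a log2 difference of 1. With 75th percentile scaling the median of all genes moved by 0.43 here, and relative to it Keap1 was at -0.04 and the other 8 genes above 0.

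Mafg was the member with several probes, all on the minus strand in build mm9, the build of the array design. The probe of highest signal lies at chr11:120489919-120489978 and the other 3 at chr11:120486465-120486524, chr11:120490321-120490380 and chr11:120490566-120490625. In LPS minus untreated these 3 had log2 differences of -1.10 (SE 0.23, adjusted p = 0.0463), -0.78 (SE 0.12, adjusted p = 0.0231) and -0.78 (SE 0.17, adjusted p = 0.0523), so the last of them fell short of the threshold. In LPS+USP7i minus LPS they gave 2.32, 2.35 and 2.38 (adjusted p 0.0195, 0.0107 and 0.0136), close to the 2.42 of the brightest probe. In LPS+USP7i minus untreated they gave 1.22, 1.58 and 1.60, all past the threshold. The 4 probes measure the same RNA samples and are not replicates of a condition. Among the single probes, that of Osgin1 lies at chr8:121970077-121970136, that of Maff at chr15:79189442-79189501, that of Nfe2l2 at chr2:75513771-75513830 and that of Bach1 at chr16:87733532-87733591, all in mm9.

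**Figure D3:**
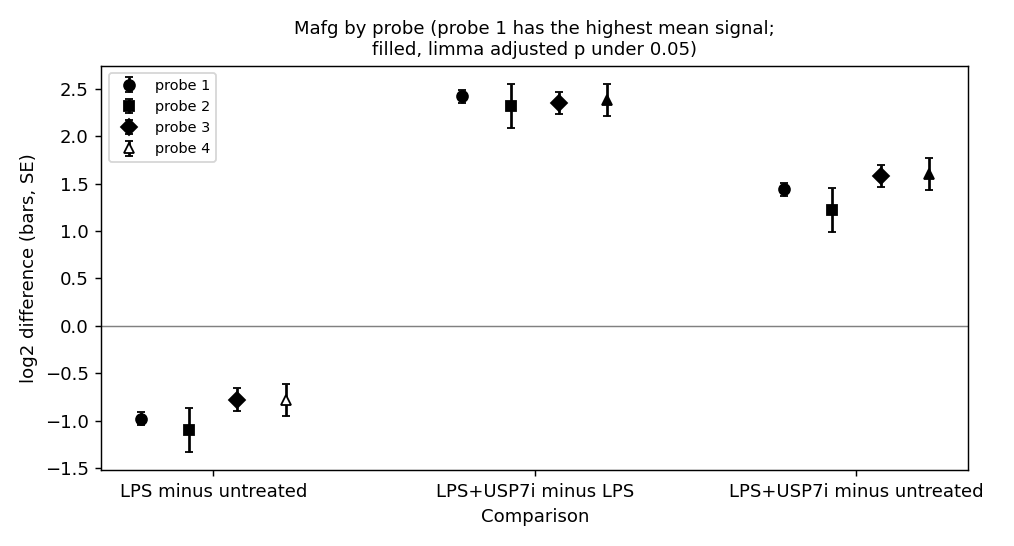
Log2 difference (y axis, bars for the SE) of the 4 Mafg probes in the 3 comparisons (x axis), filled where the limma adjusted p was under 0.05. All 4 probes lie below 0 in LPS minus untreated and between 2.32 and 2.42 in LPS+USP7i minus LPS.

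Since Mafg and Osgin1 were called lower with LPS and higher with the inhibitor, and Maff and Mafk rose with LPS, their promoter sequences are shown. RefSeq windows (GRCm38.p6) of 300 bases, 250 before to 50 after a start, were found for all 9 genes, 15 windows in all. They were searched on both strands for the antioxidant response element core TGACNNNGC, the AP-1 site TGANTCA (which reads the same on both strands) and a kappa B-like sequence GGNNTTTCC, held by 12.4%, 7.81% and 5.82% of the 32851 windows of the table. The core was found in 4 of the 15 windows, 1 each of Nfe2l2, Maff, Mafg and Mafk, the AP-1 letters in 1 of 15, that of Osgin1, and the kappa B-like letters in 1 of 15, a window of Maff. None of the 3 was found in the windows of Nfe2l1, Keap1, Bach1 or Cul3, which says only that those letters are not there. Below are the 250 bases before the start, 5′ to 3′ on the gene's strand, with matches in capitals. The windows of Mafg and Osgin1 belong to starts 1408 and 11265 bases inside the annotated gene, while those of Mafk and of the window shown for Maff are at the gene's start.
Mafg, minus strand, chr11:120633548-120633797: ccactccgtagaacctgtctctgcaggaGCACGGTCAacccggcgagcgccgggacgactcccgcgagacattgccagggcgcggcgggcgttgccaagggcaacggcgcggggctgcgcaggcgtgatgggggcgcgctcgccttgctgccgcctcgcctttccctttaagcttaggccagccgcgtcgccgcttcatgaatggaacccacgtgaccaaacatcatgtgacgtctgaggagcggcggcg
Osgin1, plus strand, chr8:119436897-119437146: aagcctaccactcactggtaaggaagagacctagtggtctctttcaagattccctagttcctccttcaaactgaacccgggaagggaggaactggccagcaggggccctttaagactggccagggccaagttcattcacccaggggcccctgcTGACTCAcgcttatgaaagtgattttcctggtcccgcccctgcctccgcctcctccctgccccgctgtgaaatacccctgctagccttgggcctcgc
Maff, plus strand, chr15:79346371-79346620: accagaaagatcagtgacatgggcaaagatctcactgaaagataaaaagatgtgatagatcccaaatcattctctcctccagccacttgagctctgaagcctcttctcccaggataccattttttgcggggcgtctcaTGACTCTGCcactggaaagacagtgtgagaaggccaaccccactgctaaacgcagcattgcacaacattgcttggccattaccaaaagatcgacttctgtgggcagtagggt
Mafk, plus strand, chr5:139791286-139791535: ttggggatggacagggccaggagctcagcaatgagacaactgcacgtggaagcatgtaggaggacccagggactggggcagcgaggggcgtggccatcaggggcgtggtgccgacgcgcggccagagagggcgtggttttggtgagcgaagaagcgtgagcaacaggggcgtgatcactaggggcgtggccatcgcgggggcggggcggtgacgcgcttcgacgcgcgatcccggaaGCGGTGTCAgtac

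In these sequences the capitals mark the reverse complement of the core from -222 to -214 of the start in Mafg, the AP-1 letters from -97 to -91 in Osgin1, the core from -112 to -104 in Maff and the reverse complement of the core from -13 to -5 in Mafk. Mafg, which fell with LPS, and Maff and Mafk, which rose, each held the core, while Osgin1, which also fell with LPS, did not hold it in this window. A match is a description of letters and not a measured binding site.

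The known NRF2 target genes were read beside their regulators. Their list was chosen with earlier results of these data known, so the shares below describe the list and test nothing. Of 32 listed targets, all above background on all 6 arrays, 17 (53.1%) were called higher in LPS+USP7i than in LPS and 0 lower. Of all genes 5.52% were called higher, and of genes above background on all 6 arrays 9.74%. At an unadjusted p under 0.05 limma gave 26 targets higher and 0 lower, against 4989 and 4060 of the 34787 genes tested. The median log2 difference of the targets was 1.24, against 0 over all genes and 0.05 over genes above background on all 6 arrays. Hmox1, encoding heme oxygenase 1, was at 13.85 and 13.30 on the LPS arrays and 18.06 and 18.15 on the LPS+USP7i arrays, a 23.1-fold rise (log2 difference 4.53, SE 0.25, adjusted p = 0.0113). Srxn1, encoding sulfiredoxin, rose by 3.97 (adjusted p = 0.0144), and Gclc and Gclm, encoding the subunits of the enzyme that limits glutathione synthesis, by 3.82 (adjusted p = 0.0104) and 3.79 (adjusted p = 0.028). Cbr3 rose by 2.89 (adjusted p = 0.013) and Txnrd1, a thioredoxin reductase, by 1.91 (adjusted p = 0.0104). Nqo1, a quinone reductase often used as an NRF2 marker, had a log2 difference of 1.85 and did not pass (adjusted p = 0.0668). Gstm1 and Ftl1 did not pass either (limma adjusted p = 0.0568 and 0.241). The array design places their probes at chr5:117082490-117082549 and chr17:6131686-6131745 (mm9), and whether these measure the named genes alone was not tested. As for the 9 genes, none of the 17 calls was made without either untreated array, and leaving out 1 array at a time gave 0 to 10 targets called higher. The call of Gclm was lost with any 1 of the 6 arrays left out (adjusted p 0.0508 to 0.101, log2 difference 3.20 to 4.30) and that of Cbr3 also without LPS replicate 2.

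In LPS minus untreated 4 of the 32 targets (12.5%) were called higher and 6 (18.8%) lower. The shares were 14.1% and 23.9% of genes above background on all 6 arrays, and 7.98% and 12.8% of all genes. At an unadjusted p under 0.05 limma gave 4 targets higher and 12 lower, against 4350 and 7156 of the 34787 genes tested. The median log2 difference of the targets was -0.37, against -0.18 over genes above background on all 6 arrays. Slc7a11, the cystine transporter, rose by 3.68 (SE 0.34, adjusted p = 0.00774), Txnrd1 by 1.28 (adjusted p = 0.00438), Abcc1 by 0.78 (adjusted p = 0.0459) and Txn1 by 0.44, while Cbr3 fell by 1.40 (adjusted p = 0.0188), Slc48a1, a heme transporter, by 1.37 (adjusted p = 0.00319), Akr1b8 by 0.86 (adjusted p = 0.0274), Taldo1 by 0.68 (adjusted p = 0.0376) and G6pdx by 0.61 (adjusted p = 0.00967). Hmox1 had a log2 difference of -0.88 (adjusted p = 0.106) and Srxn1 of -0.56 (adjusted p = 0.343). Slc7a11, Txnrd1 and Txn1 rose in both steps, Slc7a11 by a further 2.20 with the inhibitor (adjusted p = 0.0407). The calls of Slc7a11 and Txn1 in LPS+USP7i minus LPS were lost with any 1 array left out (adjusted p 0.0578 to 0.148 and 0.0695 to 0.138); in LPS minus untreated those of Txn1, Abcc1 and Akr1b8 were lost without any 1 untreated or LPS array (adjusted p up to 0.13, 0.184 and 0.12), that of Taldo1 with any 1 array left out (adjusted p 0.0652 to 0.125), that of G6pdx without untreated replicate 1 (adjusted p = 0.0516), and that of Cbr3 without any 1 LPS or LPS+USP7i array (adjusted p up to 0.0853). The number called lower with LPS was 10 with normexp background correction or with dim probes left out, 3 in the deposited log2 table, 2 with 75th percentile scaling or at an absolute log2 difference of at least 1, and 2 to 4 with any 1 array left out; the number called higher was 2 without any 1 untreated or LPS array and at that log2 difference. Against untreated cells 14 of the 32 (43.8%) were called higher in LPS+USP7i and 0 lower, where 10.9% and 16.3% of genes above background on all 6 arrays were. There 20 were called higher with normexp, 21 with 75th percentile scaling or with dim probes left out, 9 with only the 2 groups in the fit and 4 to 10 with any 1 array left out, and 1 was called lower under 4 alternatives.

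**Figure D4:**
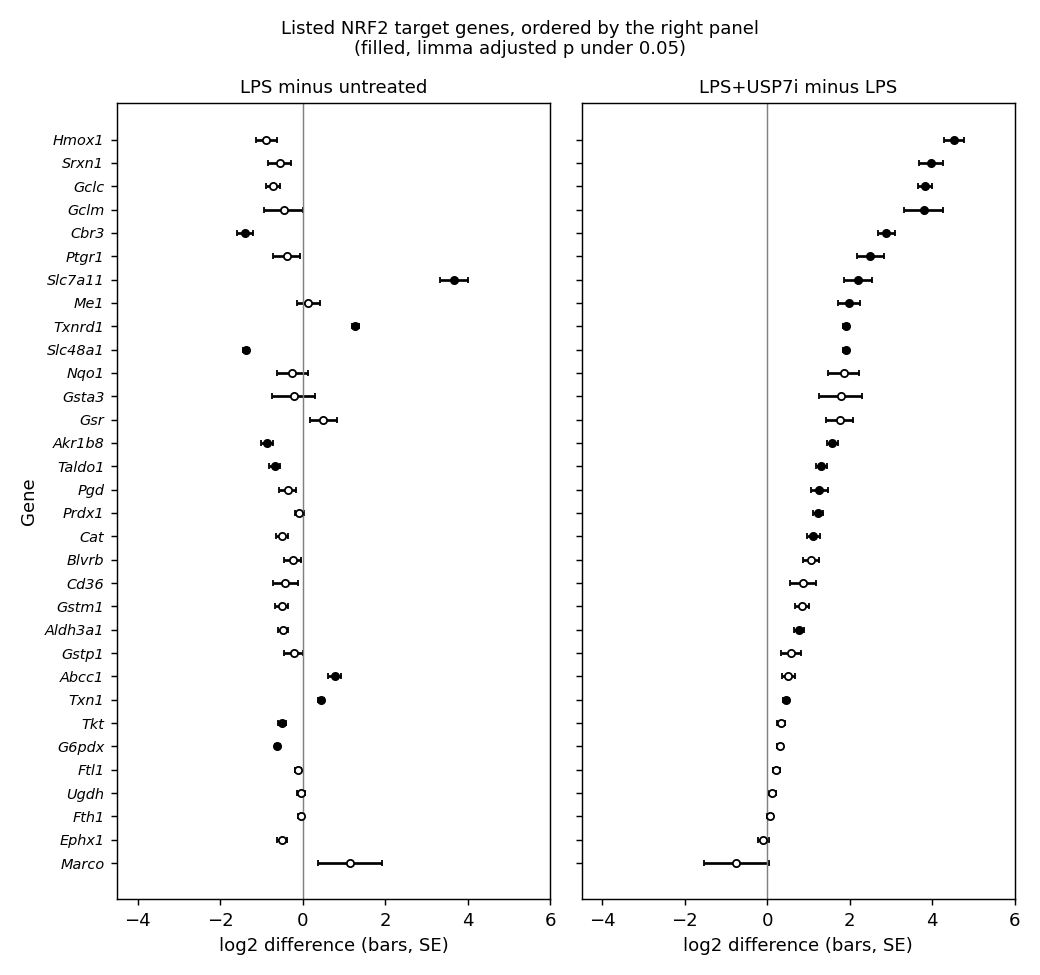
Log2 difference (x axis, bars for the SE) of the 32 listed NRF2 target genes (y axis) in LPS minus untreated and in LPS+USP7i minus LPS, filled where the limma adjusted p was under 0.05. The 17 filled points of the right panel all lie above 0; the left panel has 4 filled points above and 6 below 0. Both panels share the LPS arrays, and the list was chosen with earlier results of these data known.

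Of 20 other genes known to act on NRF2-family proteins, 16 were above background on all 6 arrays. This list too was chosen with earlier results of these data known. In LPS minus untreated 4 of the 20 (20%) were called higher and 7 (35%) lower, and in LPS+USP7i minus LPS 5 (25%) higher and 3 (15%) lower; the shares of all genes were 7.98% and 12.8%, then 5.52% and 4.27%, and those of genes above background on all 6 arrays 14.1% and 23.9%, then 9.74% and 7.42%. Sqstm1, encoding the p62 adaptor that binds KEAP1, was at 13.69 and 13.32, then 15.39 and 14.98, then 16.64 and 16.85 in untreated, LPS and LPS+USP7i arrays. It rose in both steps, by 1.68 with LPS (adjusted p = 0.0149) and by a further 1.56 with the inhibitor (adjusted p = 0.0327). Gsk3b, whose kinase marks NRF2 for another ubiquitin ligase, and Vcp, which acts in the release of NRF1, had the order of Mafg and Osgin1: Gsk3b fell by 0.79 and was higher by 1.22 (adjusted p = 0.0287 and 0.0224), and Vcp fell by 0.46 and was higher by 1.37 (adjusted p = 0.0196 and 0.0106). Under 75th percentile scaling Vcp was at 0.08 with LPS, below the 0.40 by which the median of all genes moved. Ddi2, which encodes a protease that cleaves NRF1, fell by 2.16 with LPS and was higher by 1.18 with the inhibitor (adjusted p = 0.00735 and 0.0462), its untreated arrays the highest. Fbxo22 fell by 0.72 with LPS and was higher by 0.65 with the inhibitor (adjusted p = 0.00727 and 0.0198), and Dpp3 fell by 0.45 with LPS (adjusted p = 0.027). Fbxw11 rose by 0.84 with LPS (adjusted p = 0.0283), and Syvn1 rose by 0.44 with LPS and fell by 0.66 with the inhibitor (adjusted p = 0.0236 and 0.0214). Cdkn1a, whose product p21 binds NRF2, was higher by 2.49 with LPS and lower by a log2 difference of -1.06 with the inhibitor (adjusted p = 0.00415 and 0.0347). Nfe2, a relative of NRF2 that also pairs with small MAF proteins, was above background on both LPS arrays and on neither LPS+USP7i array, which makes the level with the inhibitor lower by at least 3-fold (adjusted p = 0.015). With 1 array left out, the falls of Ddi2, Gsk3b and Vcp with LPS had adjusted p of up to 0.0517, 0.127 and 0.0946 and the rise of Sqstm1 up to 0.0701; the calls of Dpp3 and Syvn1 there were lost with any 1 array left out (adjusted p 0.0543 to 0.113 and 0.0505 to 0.0926), that of Fbxw11 without any 1 untreated or LPS array (adjusted p up to 0.127) and that of Fbxo22 without untreated replicate 2 (adjusted p = 0.0507). With the mean over all probes of a gene Syvn1 was at -0.21 with LPS. No call in LPS+USP7i minus LPS was made without either untreated array, those of Sqstm1, Cdkn1a and Syvn1 were lost with any 1 of the 6 arrays left out (adjusted p 0.0726 to 0.101, 0.0667 to 0.123 and 0.0538 to 0.0802), those of Ddi2, Gsk3b and Nfe2 also without either LPS array (adjusted p up to 0.165, 0.084 and 0.0624), and that of Fbxo22 also without either LPS array or LPS+USP7i replicate 1 (adjusted p up to 0.071).

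The genes whose course over the 6 arrays was most like that of Nfe2l2 or Maff were found among 12477 genes, by the root mean square difference of log2 values centred on each probe's own mean. For Nfe2l2 they were Fbxo34 (0.074), Iqcb1 (0.082) and 2310065F04Rik (0.089). For Maff they were Jdp2 (0.29), which encodes another leucine zipper protein, Stx11 (0.32) and Dusp14 (0.42), with log2 differences of 4.58, 4.58 and 4.72 in LPS minus untreated. None of these 6 neighbours was on the lists of targets or regulators.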

How the data were processed

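Agilent single-colour arrays were run by a profiling service and read with Feature Extraction 10.7.3.1. The deposited intensity values are its processed signals, already background-subtracted and detrended per the file headers. A deposited log2 table, quantile-normalized per the methods of the study, served as an alternative. Here log2 processed signals were quantile-normalized over non-control spots, spots flagged as outliers were set missing, spots of a probe were averaged, and limma 3.58.1 (lmFit and eBayes, R 4.3.3) was fitted to all 6 arrays with group as the term. Benjamini-Hochberg adjustment covered 55680 probes, and a gene was called at an adjusted p under 0.05 by its probe of highest mean signal. Residual degrees of freedom were 3, and an exact permutation of 2 against 2 arrays cannot go below 0.333, so the number of arrays limits the precision. Replicate arrays correlated at 0.996, 0.993 and 0.991 across probes in untreated, LPS and LPS+USP7i, and probes well above background numbered 25002 to 27467 per array.

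Of the probes, 26762 were named through RefSeq accessions (GRCm38.p6), 3819 by symbol and 639 by synonym, and 24461 kept the name in the file. A fold against a group below background was taken against its own signal or, where that was lower, the lowest signal on the array among probes well above background. All arrays were on 1 slide, in 1 scan; each group lay in 1 slide row, so row and treatment cannot be told apart. The members and gene lists were chosen with earlier results of these data known. Named from the lists were, per direction in each of the first 2 comparisons, up to 5 genes of the largest absolute log2 difference among those called, above background and without overlap between groups, plus Sqstm1, Hmox1, Nqo1, Gclm, Slc7a11, Srxn1 and Txnrd1. Alternatives covered scaling, background correction, dim probes, outlier spots, the variance prior, the arrays in the fit, a replicate block, probe choice and effect size. The fit was tested on simulated data.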

Additional observations from a re-analysis of the deposited data

How the results depend on the processing

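Over the alternatives, the log2 differences of the 9 genes in the 3 comparisons gave 370 values of the same sign and side of the threshold, 39 that lost and 19 that gained a call, and 4 that changed sign. Nfe2l2 in LPS minus untreated changed sign under 75th percentile scaling (0.50) and without untreated replicate 2 (0.03) or LPS replicate 1 (0.18; -0.31 to 0.18 with 1 array left out), and Bach1 under 75th percentile scaling (0.10); none of these values passed. That scaling moved the median of all genes by 0.40, relative to which Nfe2l2 was at 0.10 and Bach1 at -0.30. Of the listed genes Vcp in the same comparison went to 0.08 under that scaling, also below that median, and Syvn1 to -0.21 with the mean over all probes of a gene.

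Members called higher in LPS minus untreated were 2 at an absolute log2 difference of at least 1, and those called lower 1; with 1 array left out they were 2 to 3 and 1 to 2. In LPS+USP7i minus LPS the number called higher was 0 with only the 2 groups in the fit (limma, 4 at an unadjusted p under 0.05), where no gene of the array passed (smallest adjusted p 0.0535), and 0 to 2 with 1 array left out; fewer arrays leave fewer degrees of freedom, and a lone array of a group is assumed to vary like the others. In LPS+USP7i minus untreated the number called higher was 8 under 75th percentile scaling, 3 at an absolute log2 difference of at least 1, and 3 to 5 with 1 array left out. With the replicate block it was 8, as Nfe2l2, Bach1 and Osgin1 gained a call. In LPS minus untreated the same block ended the call of Keap1. Deviations of same-numbered arrays correlated at 0.47, 0.42 and 0.40, replicate number is also slide column, and the numbers were not taken to pair the samples.

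Over the whole array 75th percentile scaling called 16146 genes in place of 7218 in LPS minus untreated and 15493 in place of 5175 in LPS+USP7i minus untreated, and raised the share of higher calls from 38.4% to 74.9% and from 41.4% to 78.3%. In LPS+USP7i minus LPS normexp called 5259 and leaving out dim probes 5142, in place of 3404, and a log2 difference of at least 1 left 2097 there, 4238 in LPS minus untreated and 2998 in LPS+USP7i minus untreated, where the fit of 2 groups called 3218. Leaving out 1 array gave 2787 to 6604, 0 to 3100 and 1022 to 3858 genes in the 3 comparisons. The number of members called lower in LPS+USP7i minus LPS or minus untreated was 0 under each of these alternatives (limma; at most 1 and 0 at an unadjusted p under 0.05).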

Other observations

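Fibroblast markers Col1a1, Col3a1 and Pdgfra and dendritic cell markers Flt3 and Cd209a were above background on no array, while the dendritic cell marker Zbtb46 was above it on 4 and was at least 5.65-fold higher in LPS than in untreated cells (limma adjusted p = 0.00435). Of the T cell markers Cd3e was above background on all 6 arrays and Cd3g on none, and the B cell marker Cd79a was on 6. Of the mast cell and basophil markers Cpa3 and Mcpt8 were on 2 arrays each and Fcer1a on 0. Neither Cd79a nor any of the markers of T cells, mast cells and basophils, or fibroblasts passed the test in any comparison. The array design places the probe of Cd79a at chr12:53180558-53180617 (mm9), and whether it measures that gene alone was not tested. The summed linear signal of the 7 macrophage markers, of which the probe of Csf1r had the highest mean signal, was 677000 and 664000 on the untreated arrays, 550000 and 567000 on the LPS arrays and 563000 and 509000 on the LPS+USP7i arrays. That of the 5 neutrophil markers was 5190 and 6790, then 5750 and 11100, then 6160 and 9420.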
